A study of Mus musculus with 23 samples.

Results

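NRF2 is the transcription factor that switches on antioxidant and detoxification genes. The 9 genes described here encode NRF2 itself and the proteins that work with it or hold it back, and they were chosen by name for that role, not by their values. They are Nfe2l2 (NRF2), Nfe2l1 (NRF1), Keap1, Bach1, Maff, Mafg, Mafk, Sqstm1 (p62) and Cul3, 9 of 18820 genes measured. Each was read from a probe set annotated to that gene alone, and all 9 had a mean linear signal above 20 in every comparison.

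The RNA came from colon mucosa, scraped from male mice that were 7 to 9 weeks old when the diets began and were fed for 14 days. WT mice were of strain 129S1/SvImJ, and KO mice of strain 129S4/SvJae-Pparatm1Gonz/J, which lack functional PPARα, a nuclear receptor activated by fatty acids, in every cell. All mice ate a purified Westernized diet with 40 energy% fat, mostly palm oil, and 30 µmol/g calcium, and the heme groups received this diet with 0.5 µmol heme per g. There were 5 WT mice on the control diet and 6 on heme, and 6 KO mice on each diet, with 1 array per mouse. The study had left out 1 WT control array for its quality. Since the genotypes also differed in substrain, PPARα loss and substrain cannot be told apart.

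In unstressed cells KEAP1 joins NRF2 to the CUL3 ubiquitin ligase, which marks it for destruction by the proteasome. Oxidants and electrophiles modify cysteines of KEAP1, NRF2 then accumulates, pairs with a small MAF protein and binds antioxidant response elements (ARE) in its target genes. BACH1 pairs with the same small MAFs at similar elements and represses, until heme binds it and it leaves the DNA. p62 is an autophagy adaptor that can take KEAP1 away from NRF2. Much of this control acts on proteins, whereas the arrays measured messenger RNA only.

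Of the 9 regulators, Sqstm1 alone was called higher on heme in both genotypes, and Nfe2l2 was called lower in KO mice. To show the DNA before these genes, the RefSeq promoter of Sqstm1 is printed as the 250 bases before its start (GRCm38.p6, chr11:50210821-50211070, minus strand, 5′ to 3′ in the direction of the gene). It holds no ARE core, spelled TGACNNNGC and searched on both strands, so no letters are in capitals.
Sqstm1: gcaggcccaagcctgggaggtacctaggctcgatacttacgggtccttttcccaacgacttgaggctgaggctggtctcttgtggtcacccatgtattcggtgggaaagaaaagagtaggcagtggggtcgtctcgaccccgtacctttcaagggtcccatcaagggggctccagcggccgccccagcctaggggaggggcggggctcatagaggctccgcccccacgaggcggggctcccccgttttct

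The ARE core was found in the same window of 4 of the 9 regulators, namely Nfe2l2, Maff, Mafg and Mafk. Its first base, in the direction of the gene, lay at −240, −112, −222 and −13 from the start. Several windows were searched for Nfe2l1 (5) and Maff (3) and 1 for each of the others. The core was present in 11.5% of 27025 genes with a promoter in the table, and in 7 of 29 NRF2 target genes (24.1%). The related core TGANTCA of AP-1 sites, with which TGACNNNGC can overlap, was in 0 of the 9 regulators, 4 of the 29 targets and 7.82% of all genes. A match describes the letters only. Bases farther from the start were not searched, so a window without a match does not mean that the gene lacks such an element. The matches in the regulators are shown with up to 11 bases on each side and the core in capitals, on the strand that reads the core, beside those of the target genes Txnrd1 and Gclm for comparison. They lie at chr2:75704884-75704913, chr15:79346498-79346528, chr11:120633750-120633780, chr5:139791512-139791535, chr10:82859103-82859133 and chr3:122245412-122245442, in the order printed.
Nfe2l2: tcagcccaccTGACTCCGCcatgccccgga
Maff: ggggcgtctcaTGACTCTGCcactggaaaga
Mafg: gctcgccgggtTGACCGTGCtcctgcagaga
Mafk: gtacTGACACCGCttccgggatcg
Txnrd1: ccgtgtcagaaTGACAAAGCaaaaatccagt
Gclm: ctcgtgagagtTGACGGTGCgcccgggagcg

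As a check of the labels, the Ppara signal was 495 ± 50.9 (SD, n = 5) in WT control mice, 415 ± 43.9 (n = 6) in WT heme, 310 ± 46.5 (n = 6) in KO control and 200.03 ± 31.5 (n = 6) in KO heme mice, so it was lower in KO mice on either diet (limma, adjusted p = 0.0055 on control and 2.6e-06 on heme). Arrays resembled each other closely within groups, with mean correlations of 0.991 to 0.996 to the other arrays of their group. Correlations between groups were not set beside them, so these values do not check the labels. All 14 markers of colon epithelium exceeded a signal of 20 in each group, with summed signals of 66171 to 74062. Smooth muscle was uneven: the summed signal of its 13 measured markers, all above 20, ranged from 5874 to 16876 in WT control, 3458 to 5298 in WT heme, 3233 to 8232 in KO control and 3145 to 5395 in KO heme mice. Fibroblast markers were uneven too, most in WT control mice (1320 to 4548), and immune cell markers most in KO heme mice (798 to 2628). The median log2 difference of immune markers for KO against WT was 0.27 on control and 0.25 on heme, with 0 called. Of these lists only smooth muscle was used as a covariate. With this scraped tissue, fewer cells of a type and less RNA per cell cannot be told apart.

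Sqstm1 messenger RNA rose on heme by a similar amount in WT and KO mice. The linear signals of the 5 WT control mice were 1965, 1831, 1922, 1889 and 1759. On heme the WT mice ranged from 2396 to 2932 with a median of 2458. All WT mice on heme therefore lay above all WT control mice, and the same held in KO mice. In KO mice the lowest, median and highest signals were 1755, 2002 and 2064 on the control diet and 2456, 2651 and 2859 on heme. The log2 fold change was 0.45 in WT mice (SE 0.0579, 95% confidence interval 0.33 to 0.57, limma adjusted p = 6.4e-06), which is a rise of 36.2% (25.3 to 48.0). In KO mice it was 0.44 (SE 0.0552, interval 0.32 to 0.55, adjusted p = 3.9e-06), a rise of 35.5% (25.2 to 46.7). The difference between these 2 heme effects was -0.01 on the log2 scale, with an interval of -0.17 to 0.16 (limma adjusted p = 0.992). With the smooth muscle markers of each array as a covariate the values were 0.49 in WT and 0.46 in KO mice, and both stayed called (adjusted p = 4.6e-04 and 1.5e-05). A dimmer probe set shared by Sqstm1 and Mrnip showed 0.14 in WT and 0.07 in KO mice (limma adjusted p = 0.416 and 0.689). That probe set cannot be assigned to either gene.

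**Figure D1:**
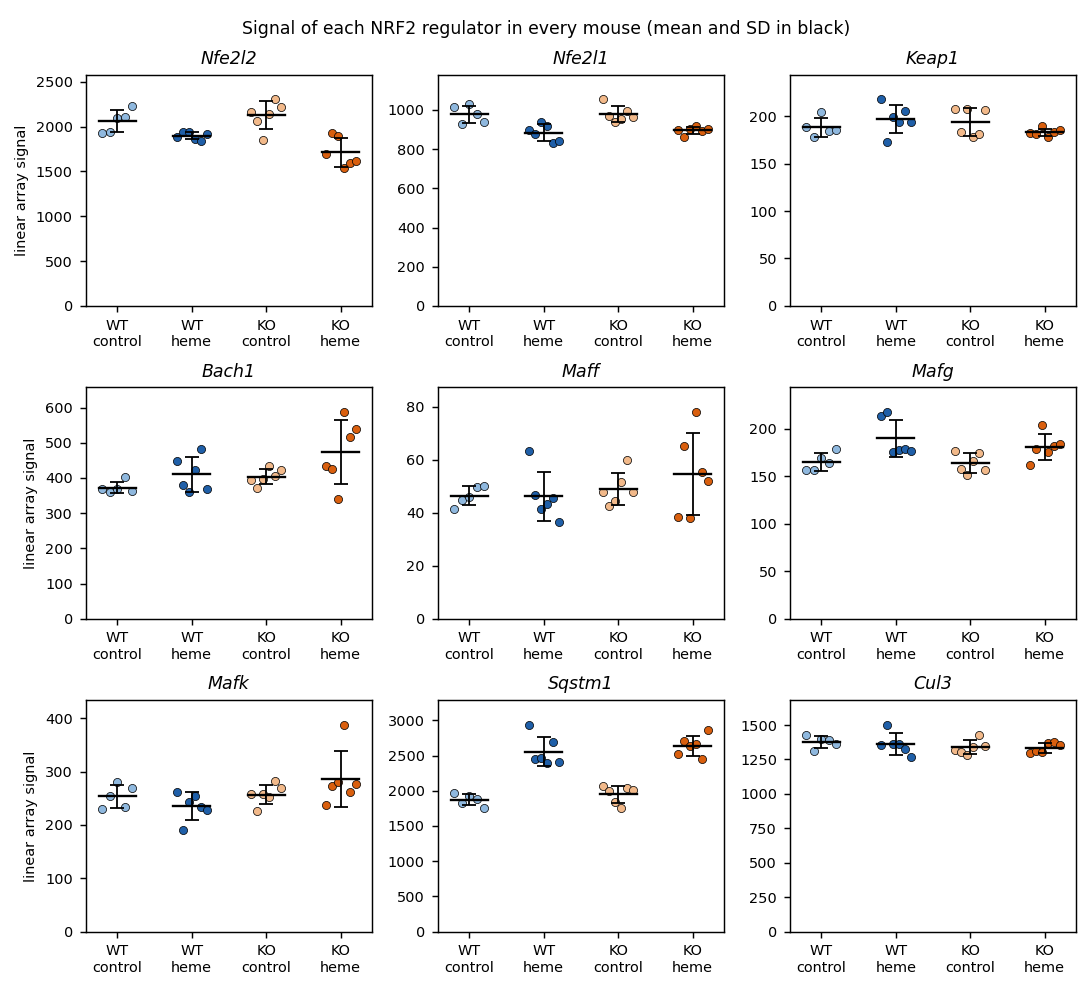
Linear array signal (y axis, starting at 0) of each of the 9 regulators in every mouse, by genotype and diet (x axis); points are mice, and the black bars give the mean and SD. The Sqstm1 signals of the heme groups are 2396 or more and those of the control groups 2064 or less. The diet groups of the other regulators overlap in both genotypes, except those of Nfe2l1 in KO mice.

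Nfe2l2, which encodes NRF2, was lower on heme in KO mice, while the smaller difference in WT mice did not pass the test. WT control mice had signals of 1930, 1940, 2098, 2113 and 2227, and WT mice on heme ranged from 1841 to 1942 with a median of 1903. In KO mice the lowest, median and highest signals were 1856, 2156 and 2305 on the control diet and 1535, 1661 and 1931 on heme. The diet groups overlapped in both genotypes, although 4 of the 6 KO mice on heme lay below every KO control mouse. In KO mice the log2 fold change was -0.31 (SE 0.0592, interval -0.44 to -0.19, limma adjusted p = 3.2e-04), a change of -19.5% (-26.1% to -12.4%). In WT mice it was -0.12 (SE 0.0621, interval -0.24 to 0.01, limma adjusted p = 0.180), and -0.21 with the smooth muscle covariate (adjusted p = 0.088). That difference between genotypes was itself not called. The interaction was -0.20 with an interval of -0.37 to -0.02 (limma adjusted p = 0.697, unadjusted 0.0308; -0.14 with the covariate), and KO against WT mice on heme differed by -0.15 (adjusted p = 0.269). The call in KO mice was kept under every alternative tried, with log2 fold changes of -0.36 to -0.27 and adjusted p up to 0.0044.

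Nfe2l1 encodes NRF1, a relative of NRF2 that is held in the endoplasmic reticulum and, once released, drives genes of the proteasome. Its mean signal was 978 ± 44.6 (SD, n = 5) in WT control, 884 ± 42.4 (n = 6) in WT heme, 979 ± 41.5 (n = 6) in KO control and 896 ± 17.3 (n = 6) in KO heme mice. The KO diet groups did not overlap, with 937 the lowest on the control diet and 916 the highest on heme. The WT groups overlapped by 1 mouse at each end, at 929 and 937. The log2 fold changes were -0.15 in WT mice (interval -0.23 to -0.06, limma adjusted p = 0.0134) and -0.13 in KO mice (interval -0.21 to -0.04, adjusted p = 0.0233), neither of them called. Nfe2l1 lay near the threshold. In WT mice it passed without WT heme replicate 3 (-0.16, limma adjusted p = 0.0094) and with dim genes removed before the fit (0.0097). It also passed there with a variance trend and robust estimation (limma adjusted p = 0.0082). The ordinary two-way model called it in both genotypes, on log2 values (adjusted p = 0.0041 in WT and 0.0076 in KO mice) and on linear signal (0.0047 and 0.0079). Centring each array on its median moved it away from the threshold (limma adjusted p = 0.116 for WT and 0.254 for KO mice). So did the smooth muscle covariate (limma adjusted p = 0.125 and 0.0503).

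The repressor Keap1 and the ligase scaffold Cul3 were not called in any comparison. Keap1 had mean signals of 188 ± 9.85 (SD, n = 5) in WT control, 197 ± 14.8 (n = 6) in WT heme, 194 ± 14.5 (n = 6) in KO control and 183 ± 3.77 (n = 6) in KO heme mice. For heme its log2 fold change was 0.07 in WT mice (interval -0.05 to 0.18) and -0.08 in KO mice (-0.19 to 0.03). Keap1 thus had opposite signs in the 2 genotypes, without passing the test in either or in the interaction (-0.15, limma adjusted p = 0.761). For Cul3 the mean signals were 1378 ± 44.7, 1362 ± 76.7, 1338 ± 50.6 and 1334 ± 35.1 in the same order. Its interval for heme ran from -0.11 to 0.07 in WT mice and from -0.09 to 0.08 in KO mice, so a change of more than 0.11 in either direction lay outside both.

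BACH1 is the repressor that heme itself releases from DNA. The Bach1 signal had a mean of 373 ± 16.9 (SD, n = 5) in WT control, 410 ± 49.2 (n = 6) in WT heme, 404 ± 22.6 (n = 6) in KO control and 473 ± 90.5 (n = 6) in KO heme mice. Mice on heme were more spread than mice on the control diet in both genotypes, with coefficients of variation of 12.0% against 4.53% in WT and 19.1% against 5.60% in KO mice. With heme, Bach1 differed by 0.13 on the log2 scale in WT mice (limma adjusted p = 0.393; 0.02 with the smooth muscle covariate) and 0.21 in KO mice (interval 0.00 to 0.41, adjusted p = 0.125). The KO value rested on single arrays: without KO heme replicate 3, the mouse with the lowest signal, it was 0.30 and called (limma adjusted p = 0.0093).

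Small MAF proteins bind DNA but have no activation domain of their own, and serve NRF2, NRF1 and BACH1 alike as partners. Mafg had means of 165 ± 9.36 (SD, n = 5) in WT control, 190 ± 19.8 (n = 6) in WT heme, 164 ± 10.3 (n = 6) in KO control and 181 ± 13.9 (n = 6) in KO heme mice. For Mafg the heme effect was 0.20 on the log2 scale in WT (interval 0.06 to 0.34, limma adjusted p = 0.0329) and 0.14 in KO mice (0.01 to 0.27, adjusted p = 0.117). Neither value passed the threshold of 0.01, and both were 0.09 with the smooth muscle covariate. Mafk differed by -0.11 in WT and 0.14 in KO mice (limma adjusted p = 0.452 and 0.287); without KO heme replicate 4, the highest mouse, the KO value was 0.05. Between genotypes on heme Mafk was 236 ± 25.4 in WT and 286 ± 51.7 in KO mice, a log2 difference of 0.27 (interval 0.08 to 0.46, limma adjusted p = 0.201, unadjusted 0.0077), and 0.18 without that mouse (adjusted p = 0.431). Maff had means of 46.4 ± 3.65, 46.2 ± 9.17, 49.0 ± 6.15 and 54.5 ± 15.5 in the 4 groups. Its heme effect was -0.03 in WT mice, which turned to 0.00 once each array was centred on its median, and 0.11 in KO mice, which was 0.00 without KO heme replicate 4. None of the 3 small Mafs was called in any comparison.

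**Figure D2:**
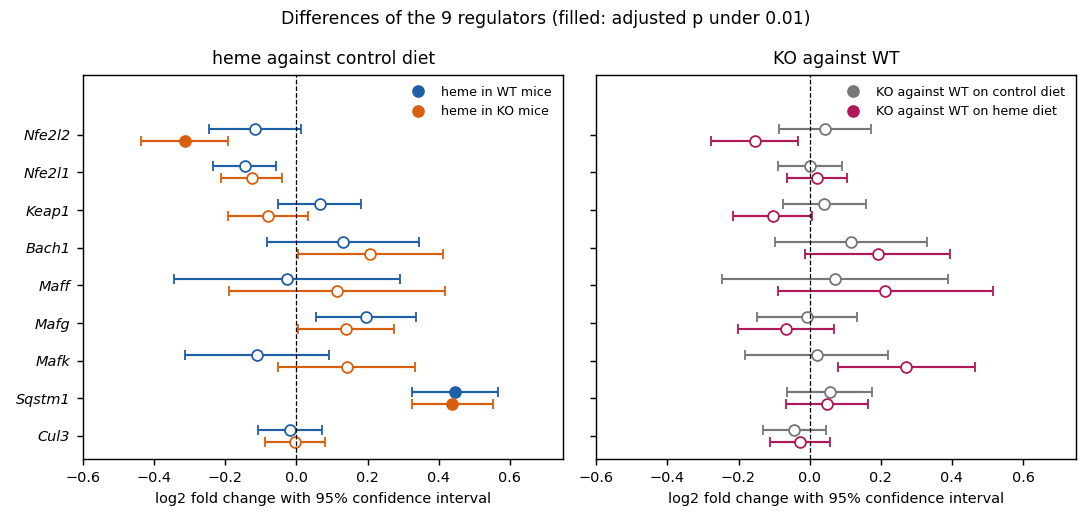
Log2 fold changes (x axis) of the 9 regulators (y axis) for heme against control diet and for KO against WT mice, with 95% confidence intervals from limma; filled points passed an adjusted p under 0.01. Sqstm1 is filled in both genotypes and Nfe2l2 in KO mice, and no point is filled for KO against WT.

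Counted over the 9 regulators, a gene was called at a limma adjusted p under 0.01 over all genes and a mean signal above 20 in a compared group. For heme in WT mice 1 regulator was called higher and 0 lower, where 9.60% of all genes were higher and 8.29% lower. In KO mice 1 was higher and 1 lower, where 9.23% of all genes were higher and 9.20% lower. These counts are close to what the background share gives for 9 genes. The median absolute log2 fold change of the regulators was 0.12 in WT and 0.14 in KO mice, against 0.15 in either genotype for all genes above the signal limit. Between genotypes 0 of 9 were called on the control diet by limma (0 at an unadjusted p under 0.05; 0.0531% of all genes called) and 0 of 9 on heme (2 at an unadjusted p under 0.05; 0.234% of all genes called). In the interaction 0 of 9 were called (1 at an unadjusted p under 0.05; 0.0106% of all genes called). An ordinary two-way model without moderation also called 0 regulators in each of these 3 comparisons.

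Within the KO heme group the mice with least Nfe2l2 were those with most Bach1. Replicates 4, 5 and 6 had Nfe2l2 signals of 1535, 1599 and 1621, whereas replicates 1, 2 and 3 had 1700, 1931 and 1893. For Bach1 the same mice had 587, 517 and 539 in replicates 4, 5 and 6, and 433, 424 and 340 in replicates 1, 2 and 3. Maff did not follow this order throughout: it was 77.9, 55.4 and 52.1 in replicates 4, 5 and 6, but replicate 2 had 65.1. Mafk was highest in replicate 4, at 387. The summed signals of proliferating cell markers in these 6 mice were 5215, 4464, 3619, 4267, 5006 and 4223, and those of immune cell markers were 2628, 1445, 1286, 1433, 1086 and 798, in the order of the replicate numbers. The proliferation sums of replicates 4, 5 and 6 lay among those of the other mice. Their immune sums were mostly lower, although replicate 3 (1286) lay below replicate 4 (1433). Only these lists are given for single mice, and the part of cell composition was not tested. Replicates 4, 5 and 6 were singled out after their values were seen.

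**Figure D3:**
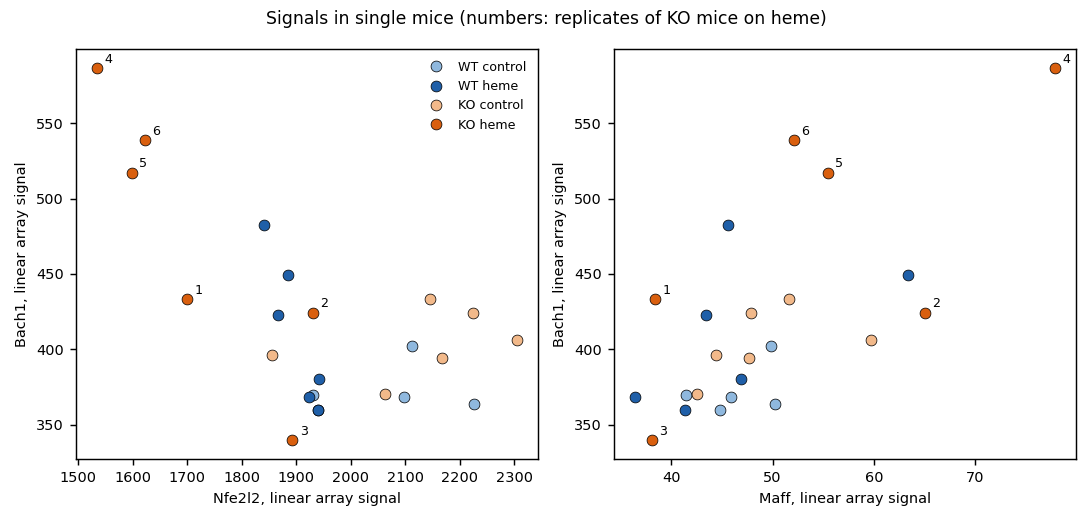
Bach1 signal (y axes) against Nfe2l2 and Maff signal (x axes), linear array units, in all 23 mice; the axes do not start at 0, and numbers mark the replicates of KO mice on heme. Replicates 4, 5 and 6 stand at the upper left in the Nfe2l2 panel, with Nfe2l2 at 1621 or less and Bach1 at 517 or more.

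The genes most like the called regulators over the 23 arrays were found by Pearson's r of log2 values among 14390 other genes with a group signal above 20. The arrays share diet groups, so r is a description of a shared pattern. Most like Sqstm1 were Txnrd1, the cytosolic thioredoxin reductase (r = 0.94), Cpt2, a carnitine palmitoyltransferase of mitochondrial fatty acid oxidation (0.94), and Srxn1, a sulfiredoxin that repairs peroxiredoxins (0.94). For deviations from the group means r was lower, at 0.47, 0.45 and 0.49. Most like Nfe2l2 were Ihh, the ligand Indian hedgehog (r = 0.91), Rarg, a retinoic acid receptor (0.89), and Ephb4, an ephrin receptor (0.88). Their r of deviations was 0.75, 0.64 and 0.64, which is partly fixed by the choice, since the same arrays gave both. Chosen for their likeness, they had log2 fold changes on heme in KO mice of -0.71 for Ihh, -0.67 for Rarg and -0.37 for Ephb4, given here without a test. Their WT values are not given, so these do not show a response particular to KO mice. For Ihh the study reports a similar decrease on heme in both genotypes.

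The listed genes that NRF2 switches on mostly rose. This list leaves out the 9 regulators, so it does not tell whether any regulator is also a target. Of 35 measured target genes 28 were higher and 1 was lower on heme in WT mice, and 26 were higher and 1 lower in KO mice (all genes: 9.60% higher in WT and 9.23% in KO mice). Its median gene differed by 0.75 on the log2 scale in WT mice and by 0.63 in KO mice, against -0.01 for all genes in both. Hmox1, which degrades heme, was higher by 3.43 on the log2 scale in WT and by 2.93 in KO mice. For Slc7a11, the cystine importer, the values were 3.08 and 2.65. Akr1b8, an aldo-keto reductase, showed 2.93 and 3.25, and Abcc2, an export pump for conjugates, 2.54 and 1.29. Ephx1, a microsomal epoxide hydrolase, was the lower gene (-0.62 and -0.70). Txn1, Gsta4, Ugdh, Fth1, Blvrb and Aldh3a1 were not called in either genotype. The list was written with earlier results of these data known, so its direction is no independent evidence.

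Genes that BACH1 represses mostly repeat this list, and only Slc40a1 and Slc48a1 are not in it. Of 10 such genes 7 were higher and 0 lower in WT mice, and 6 were higher and 0 lower in KO mice. Over all genes, higher calls made up 9.60% for WT and 9.23% for KO mice. Apart from Slc40a1, the called genes had already been counted among the NRF2 targets, so they are not separate evidence. Beside Hmox1 and Slc7a11 they included Me1, the malic enzyme that makes NADPH (2.14 and 2.19), and Nqo1, a quinone reductase (1.85 and 1.45). Slc40a1, which encodes the iron exporter ferroportin, was called higher in WT mice (0.54, limma adjusted p = 0.0097) but not in KO mice (0.28, adjusted p = 0.167). Its interaction was not called (-0.26, limma adjusted p = 0.857). The ferritin heavy chain gene Fth1 and the heme transporter gene Slc48a1 were called in neither genotype.

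Proteasome subunits, which NRF1 controls, were higher although Nfe2l1 messenger RNA was not. Of 29 measured subunits 26 were higher and 0 lower in WT mice (median log2 fold change 0.39), and 23 were higher and 0 lower in KO mice (median 0.34). Of all genes 9.60% and 9.23% were called higher. The largest called values in WT mice were those of Psmd14 (0.57), Psmd1 (0.56), Psmd6 (0.55) and Psmd3 (0.53), all of the regulatory cap. In KO mice they were those of the cap subunits Psmd7 (0.65), Psmd6 (0.60) and Psmd3 (0.52) and of the core subunit Psma3 (0.59). Markers of proliferating cells were also higher on heme, with 4 of 7 called in each genotype and a median of 0.59 for WT and 0.48 for KO mice; their part in these results was not tested. Among 7 measured genes of NRF1 processing Vcp, the ATPase that pulls NRF1 out of the membrane, was higher (0.43 in WT and 0.47 in KO mice). Ogt, a glycosyltransferase that modifies many nuclear proteins, was lower (-0.45 and -0.48).

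Around CUL3, 3 of 10 measured ligase genes were called higher in WT mice and 1 of 10 in KO mice, against 9.60% and 9.23% of all genes. These were Cops5, a subunit of the COP9 signalosome that removes NEDD8 from cullins (0.38), Nedd8 itself (0.37) and Rbx1, the RING subunit shared by cullin ligases (0.27). In KO mice Cops5 alone was called (0.33), whereas Nedd8 had 0.26 and Rbx1 0.15 (limma adjusted p = 0.0236 and 0.0313). The cullin genes Cul1, Cul2, Cul4a, Cul4b and Cul5 were not called in either genotype.

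Of 15 measured p62 partners and autophagy genes 0 were higher and 2 lower in WT mice, and in KO mice 2 were higher and 3 lower. The shares over all genes were 9.60% higher and 8.29% lower in WT, and 9.23% and 9.20% in KO mice. Apart from the higher calls in WT mice, the counts lay above these shares, but they are small and were not tested against them. Map1lc3a, which encodes an LC3 protein of the autophagosome membrane, was lower in both (-0.39 in WT and -0.49 in KO mice), as was Wdfy3, an adaptor that works with p62 (-0.26 and -0.22). Tbk1, a kinase that phosphorylates p62, was called lower in KO mice (-0.20, with -0.09 in WT mice). Traf6, a ubiquitin ligase bound by p62, and Atg5, needed to attach LC3 to membranes, were called higher in KO mice (0.27 and 0.18), with values of 0.15 and 0.18 in WT mice (limma adjusted p = 0.123 and 0.0115). The list thus did not move with Sqstm1 as a whole, with a median of -0.04 in WT and 0.00 in KO mice.

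Of 18 other modulators of NRF2 measured, 1 was higher and 3 lower in WT mice, and 1 higher and 4 lower in KO mice. The shares over all genes were 9.60% higher and 8.29% lower in WT, and 9.23% and 9.20% in KO mice. Higher calls were thus rarer and lower calls more frequent than over all genes, but the counts are small and were not tested against these shares. Chd6, a chromatin remodeller that binds NRF2, had lower signals with heme in each genotype (log2 -0.39 for WT, -0.46 for KO mice), and so was Crebbp, the coactivator CBP (-0.21 and -0.19). The others were called in a single genotype but had the same sign in both. Brca1 was called higher in WT mice (0.53, with 0.36 in KO mice), and Btrc, the β-TrCP subunit of another NRF2 ligase, lower in WT mice (-0.23, with -0.20). Dpp3, a peptidase that binds KEAP1, was called higher in KO mice (0.34, with 0.30 in WT mice). Rara, a retinoic acid receptor that inhibits NRF2, was called lower there (-0.37, with -0.20), as was Amer1, which binds KEAP1 and β-catenin (-0.31, with -0.23). Of the 4 other CNC, BACH and large Maf factors measured, Maf was called lower in KO mice (-0.44, limma adjusted p = 0.0045), where its value in WT mice was -0.33 (adjusted p = 0.040). Fosl1, which the study names as an inhibitor of NRF2, was measured only by probe sets annotated to Ccdc85b as well, so no value is given for it. None of the genes in these lists was called by limma between genotypes on either diet or in the interaction. That does not show equal responses. For the NRF2 targets the interaction had a median of -0.08 (range -1.24 to 0.32), against -0.01 for all genes. Their KO against WT median on heme was -0.13 (-0.88 to 0.22), against -0.01 for all genes. The study reports a significant interaction, with less induction in KO mice, for Nqo1, Gclc and Cat. Here their interactions were -0.40, -0.25 and -0.46 (limma adjusted p = 0.687, 0.814 and 0.583).

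**Figure D4:**
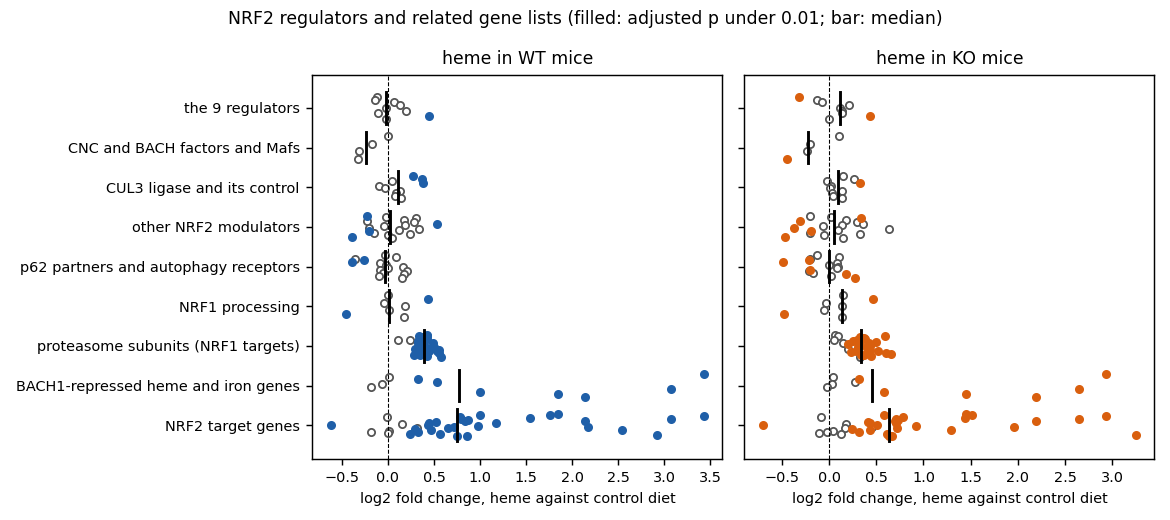
Log2 fold change on heme (x axis) in WT and KO mice for the 9 regulators and 8 lists of related genes (y axis); each point is a gene, filled where the limma adjusted p was under 0.01, and black bars are list medians. The regulators centre on -0.02 in WT and 0.11 in KO mice, whereas the NRF2 targets centre on 0.75 and 0.63 and the proteasome subunits on 0.39 and 0.34.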

How the data were processed

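RNA of 23 mice (100 ng per array) had been hybridised to whole-transcript mouse arrays. Per probe set the authors deposited log2 values from Robust Multi-array Average (RMA), which normalised all arrays together, with no version given in the sources used here. The study's text describes reorganised probe sets, so the probes behind a gene can differ. Array medians were 5.80 to 5.90 on the log2 scale; arrays have no read depth, and their number limits the precision. Of 35556 probe sets, 21218 had 1 gene symbol in the platform annotation (21185 matched by Entrez number to RefSeq, GRCm38.p6), 1881 had several and 12457 had none. For 1386 genes with several probe sets the probe set with the highest mean was taken.

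The 4 groups were fitted in 1 model without covariates by limma 3.58.1 (R 4.3.3), with Benjamini-Hochberg adjustment over 18820 genes in each of 5 contrasts, at the study's thresholds of 0.01 and signal 20. The study names no test for its q-values. On simulated data with 200 changed genes this fit recovered 75.8% of log2 changes of 0.5 and 96.2% of 1 for heme in WT mice. In the interaction it recovered 49.6% and 89.8%. These rates do not carry over to the heme tests, where far more genes were called (3367 in WT mice). All regulators differed by less than 0.5, the smallest change simulated. The regulators and lists were chosen with earlier results of these data known. Named were all 9 regulators, up to 4 called genes per list with the largest change in each genotype, and Ppara and Fosl1. The 3 genes most like each called regulator were named too. Further list genes were chosen after their values were seen: the called genes Ephx1, Slc40a1 and Atg5, and uncalled ones. Others were quoted from the study. Same-numbered mice were checked for pairing. Of 33 same-number pairs 14 correlated above 0.1 (r -0.31 to 0.34), a count without one for other pairs beside it. Since only 4 of 23 arrays correlated best with their own number, the numbers were not taken as pairs. Promoters, from RefSeq (GRCm38.p6), were searched in Python 3.11.15 with pandas 2.3.3. Alternatives covered probe sets, filters, thresholds, centring, samples fitted, block, weights, variance models, scale, smooth muscle and each array left out.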

Additional observations from a re-analysis of the deposited data

Results flagged for a closer look

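Of 36 values of a regulator in a group that were examined for a mouse far from the others, 2 stood apart, where chance flags about 1 in 20. Bach1 in WT control replicate 4 had a signal of 402.156, and its gap to the next mouse took up 0.767 of the range of the group. Mafk in KO heme replicate 4 had 387.26, with a gap of 0.662 of the range. Neither gene was called in a comparison that used these mice.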

How the results depend on the processing

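Sqstm1 in both genotypes and Nfe2l2 in KO mice stayed called under each alternative on their own probe sets. The number of regulators called for heme in WT mice was 1, and became 2 with dim genes removed before the fit, with a variance trend and robust estimation, and in the ordinary two-way model on log2 values or on linear signal, and 3 at an adjusted p under 0.05. With single arrays left out it was 1 to 2. In KO mice it was 2 to 3 over all alternatives, and between genotypes and in the interaction 0. With the replicate number as a block (replicate block), Sqstm1 had 0.44 in both genotypes (limma adjusted p = 4.8e-05 in WT and 2.5e-05 in KO mice) and Nfe2l2 -0.31 in KO mice (0.0014); 4 of 23 arrays correlated best with their own number, and no call of a regulator changed. Over all genes, centring of arrays took the share of higher calls in WT mice from 53.6% to 61.6%, and that in KO mice from 50.1% to 63.1%. The count of 3367 genes for heme in WT mice was 1256 with the smooth muscle covariate and 5092 at an adjusted p under 0.05, where that of KO mice went from 3469 to 5235. KO against WT on heme had 44 genes called, 70 with array weights, 148 at 0.05, 17 with only these groups fitted, 69 without KO heme replicate 1 and 28 without KO heme replicate 4. The interaction had 2, and 0 on linear signal. The cause of these changes was not tested. Arrays have no read depth, and 5 or 6 mice per group limit the precision.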
